A study of Mus musculus with 4 samples.

Results

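A group of 9 receptors was followed in control and Rbpj-deficient dendritic cells grown from mouse bone marrow. Through these receptors growth factors and cytokines act on myeloid cells or on the progenitors they come from. The 9 were Csf2ra, Csf2rb, Csf2rb2, Csf1r, Csf3r, Flt3, Kit, Il3ra and Il4ra. Every probe for a gene whose RefSeq accession mapped to one of these symbols was taken, which gave 15 of the 39429 probes on the array and 9 of the 17967 genes tested. Marrow came from C57BL/6 mice aged 8 weeks (sex given as female) and was cultured for 6 days with GM-CSF at 20 ng/mL, and CD11c+ cells were isolated. Control cells (RFF) were Rbpj fl/fl. Rbpj-deficient cells (RFF11) were Rbpj fl/fl and also carried CD11c-cre, a recombinase driven by the promoter of Itgax, so that the cre is present in one group only and its effect and that of losing Rbpj cannot be told apart. Both groups shared the floxed alleles and the GM-CSF culture, and no culture with another cytokine was compared. Each genotype had 2 one-colour arrays, and the RNA of 4 mice was pooled per genotype. Whether the arrays of a genotype hold different pools is not stated, so the p-values reflect array-to-array spread that may be purely technical.

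GM-CSF binds a receptor made of the ligand-specific alpha chain Csf2ra and the signalling chain Csf2rb, known as the common beta chain, which also pairs with the alpha chains for IL-3 and IL-5. Mice carry a second beta chain, Csf2rb2, which pairs with the IL-3 alpha chain Il3ra. These chains have no kinase of their own and signal through JAK2 and STAT5. Csf1r, Flt3 and Kit are receptor tyrosine kinases for M-CSF and IL-34, for Flt3 ligand and for stem cell factor. Csf3r is the receptor for G-CSF, and Il4ra is the chain that IL-4 and IL-13 receptors share. GM-CSF is the cytokine that drives marrow cultures towards dendritic cells, whereas Flt3 ligand supports the dendritic cells of lymphoid organs in the animal.

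The question put to the data was whether the receptor for the cytokine in the culture differed from the other receptors in its response to the loss of Rbpj. None of the 9 genes passed the threshold, an adjusted p of 0.05 in limma, a linear model fitted across all genes, where 1.88% of all genes passed. At an unadjusted p under 0.05 limma gave 3 of the 9, against 24.1% of all genes. Csf2ra read 89.6% of the control signal, Csf2rb 99.1%, Csf2rb2 105% and Csf1r 103%, and the 95% interval of each difference included 0. Il3ra read 73.2% and Il4ra 79.2% of the control signal, and Flt3 130.2% of it, each with an adjusted p just above the threshold. The genotypes did not overlap for these 3 or for Csf2ra, Csf1r and Csf3r, and they did not overlap for 59.1% of all genes. Csf3r and Kit also read higher on average, within a wider spread.

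Rbpj is the DNA-binding protein of the Notch pathway, and the letters TGGGAA are the core of the site it binds. They were searched, on both strands, in the RefSeq promoter windows of the members (build GRCm38.p6, 250 bases before to 50 after the start of the gene), together with AGGAAG, a core bound by PU.1 and other ETS factors that govern myeloid receptor genes, and TTCNNNGAA, the core of STAT sites. Windows were held for 7 of the 9 genes, all but Csf2rb and Csf1r. The windows printed are those of Csf2ra, the chain specific to GM-CSF, and of the 3 members farthest from the control level. Capitals mark TGGGAA and AGGAAG or their reverse complements, and each window runs 5′ to 3′ on the strand of the gene. Csf2ra lies at chr19:61228369-61228668, minus strand, Il3ra at chr14:14346245-14346544, plus strand, Il4ra at chr7:125552021-125552320, plus strand and Flt3 at chr5:147400440-147400739, minus strand.
Csf2ra: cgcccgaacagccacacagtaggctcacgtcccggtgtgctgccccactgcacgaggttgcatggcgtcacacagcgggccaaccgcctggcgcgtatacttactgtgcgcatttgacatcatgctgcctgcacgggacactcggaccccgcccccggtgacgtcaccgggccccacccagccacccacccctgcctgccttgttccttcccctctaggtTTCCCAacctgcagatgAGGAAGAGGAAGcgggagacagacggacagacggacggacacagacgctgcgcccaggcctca
Il3ra: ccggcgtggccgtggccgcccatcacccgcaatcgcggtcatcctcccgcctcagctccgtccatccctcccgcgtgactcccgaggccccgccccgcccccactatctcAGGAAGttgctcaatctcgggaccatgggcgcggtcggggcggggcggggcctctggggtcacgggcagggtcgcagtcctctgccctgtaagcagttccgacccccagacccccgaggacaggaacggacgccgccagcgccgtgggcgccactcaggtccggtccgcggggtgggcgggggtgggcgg
Il4ra: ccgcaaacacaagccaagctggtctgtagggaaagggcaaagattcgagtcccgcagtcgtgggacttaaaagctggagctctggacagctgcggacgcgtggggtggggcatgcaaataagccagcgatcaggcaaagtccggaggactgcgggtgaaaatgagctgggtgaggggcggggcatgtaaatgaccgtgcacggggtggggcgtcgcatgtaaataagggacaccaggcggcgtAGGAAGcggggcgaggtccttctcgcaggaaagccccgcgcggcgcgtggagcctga
Flt3: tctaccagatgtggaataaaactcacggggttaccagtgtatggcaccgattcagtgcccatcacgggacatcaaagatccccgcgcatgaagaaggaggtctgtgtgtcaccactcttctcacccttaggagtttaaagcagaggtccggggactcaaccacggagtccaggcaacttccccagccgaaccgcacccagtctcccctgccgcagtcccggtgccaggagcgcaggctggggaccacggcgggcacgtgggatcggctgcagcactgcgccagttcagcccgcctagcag

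TGGGAA was found in 1 of the 7 genes, Csf2ra, as its reverse complement TTCCCA at bases 221 to 226 of the window. Of all 32851 windows of this length 25.6% held it. AGGAAG was found in 6 of the 7 genes, all but Flt3, against 35.4% of all windows. In Csf2ra 2 copies stood side by side at bases 238 to 249, and in Il4ra 1 copy stood at bases 244 to 249, in each case shortly before the start. The STAT core was found in 1 gene, Csf2rb2, at bases 236 to 244, against 8.30% of all windows. The 2 motifs in capitals overlapped in none of the windows printed. A match describes the letters only, and the motifs were chosen with the receptor values known.

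The labels were checked on the arrays first. A level is the log2 signal less the 75th percentile of all gene spots on that array, and each gene was represented by its brightest probe among those kept. Rbpj stood at 2.69 and 2.61 in control cells against 1.37 and 1.44 in Rbpj-deficient cells. Signal for Rbpj was thus lower but still present in Rbpj-deficient cells. Which part of the transcript its probe reads was not looked at. Itgax, which encodes CD11c, read 6.69 and 6.63 against 6.65 and 6.45. Of the spots for genes, 55.2% to 58.4% were well above background on each array, and none was saturated. Of 10 dendritic cell markers 9 were on the array, the member Flt3 among them, and Zbtb46 was not covered. All 9 were well above background on every array. None of the 9 passed the threshold, with 3 above 0 and 6 below. The 8 other than Flt3 summed to 1126 to 1149 times the 75th percentile in control cells. In Rbpj-deficient cells they summed to 1035 to 1115 times. Over all genes tested, 338 (1.88%) passed the threshold. Of the genes tested 1.04% passed as higher and 0.84% as lower in Rbpj-deficient cells, and the median log2 change was -0.01. In these bulk samples fewer cells of a type and less RNA per cell cannot be told apart.

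The GM-CSF receptor itself comes first. Csf2ra, the alpha chain, was read by 1 probe, with levels of 6.44 and 6.42 in control cells against 6.36 and 6.19 in Rbpj-deficient cells. Both Rbpj-deficient arrays lay below both control arrays, and most of the gap came from the second of them. The mean went from 6.43 ± 0.01 to 6.27 ± 0.12 (SD, n = 2), a log2 difference of -0.16 with a 95% interval of -0.38 to 0.06 (limma SE 0.08, adjusted p = 0.318). Without Rbpj-deficient replicate 2 the difference was -0.07, and without Rbpj-deficient replicate 1 it was -0.25.

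Csf2rb, the common beta chain, read 7.00 and 6.80 in control cells and 6.91 and 6.86 in Rbpj-deficient cells, which lay between the control arrays. The log2 difference was -0.013, with a 95% interval of -0.26 to 0.24, or 83.5% to 117.7% of the control signal (limma SE 0.09, adjusted p = 0.945). The dimmer of its 2 probes read 4.02 and 3.84 against 3.96 and 3.96, a difference of 0.026. The sign for Csf2rb thus differed between its own probes, and it also turned under 5 of 14 other settings.

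Csf2rb2, the beta chain specific to IL-3, read 6.42 and 6.28 in control cells and 6.43 and 6.39 in Rbpj-deficient cells. The genotypes overlapped, and the log2 difference was 0.067 with a 95% interval of -0.13 to 0.27 (limma SE 0.07, adjusted p = 0.615). Its dimmer probe gave 0.086. Csf2rb and Csf2rb2 are close copies that lie near each other on chromosome 15, with only a microRNA gene annotated between their starts. Probe sequences were not used here, so signal that one gene may give on the probes of the other cannot be told apart.

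Il3ra, the alpha chain that joins a beta chain to form the IL-3 receptor, stood farthest from its control level. It read 3.26 and 3.34 in control cells against 2.84 and 2.86 in Rbpj-deficient cells. The arrays of each genotype lay close together and the genotypes did not overlap. The mean went from 3.30 ± 0.05 to 2.85 ± 0.01 (SD, n = 2), a log2 difference of -0.45 with a 95% interval of -0.61 to -0.29 (limma SE 0.06, unadjusted p = 0.00147, adjusted p = 0.0573). Of all genes tested 9.78% had a larger difference in either direction. Under 3 of 14 other settings Il3ra passed the threshold and counted as lower, with adjusted p = 0.0194 after normexp background correction, 0.0467 where only probes well above background on all 4 arrays were tested, and 0.00928 with a variance prior that followed the signal. Over all 14 the adjusted p ran from 0.00928 to 0.317.

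Il4ra, through which IL-4 and IL-13 act on myeloid cells, was read by 2 probes that differed in brightness and went the same way. The brighter read 2.18 and 2.17 in control cells and 1.86 and 1.81 in Rbpj-deficient cells. The dimmer read -1.60 and -1.57 against -1.84 and -1.86. The genotypes did not overlap on either probe. The log2 difference was -0.34 on the brighter probe, with a 95% interval of -0.49 to -0.18 (limma SE 0.06, adjusted p = 0.0715 over genes), and -0.26 on the dimmer (adjusted p = 0.0985 over the 22035 probes tested, of which 1.73% passed). With the variance prior that followed the signal Il4ra passed (adjusted p = 0.0167), and over all 14 settings the adjusted p ran from 0.0167 to 0.356.

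**Figure D1:**
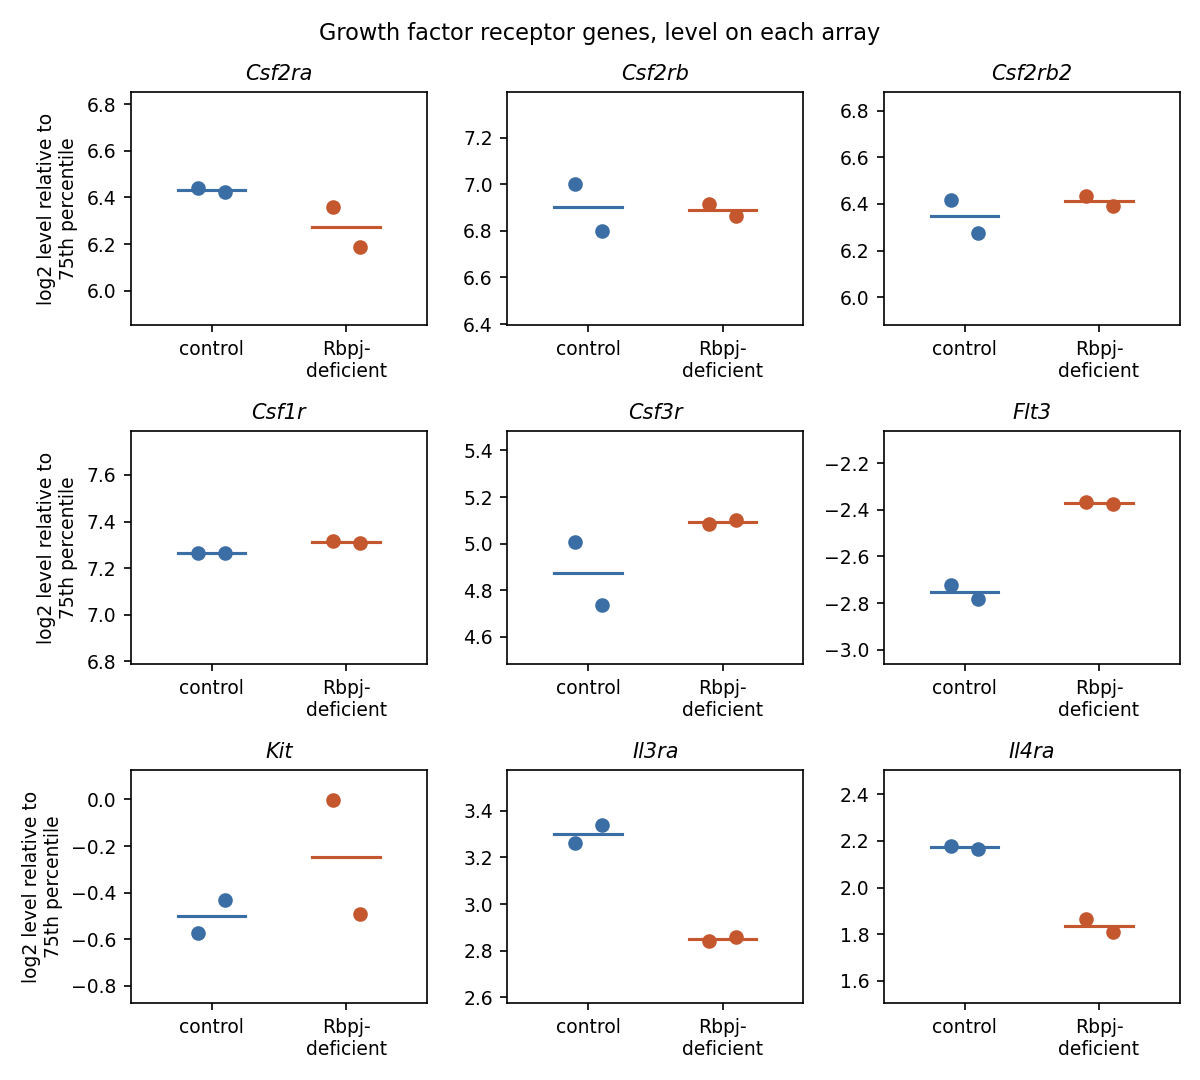
Log2 level of each of the 9 receptor genes, less the 75th percentile of its array, on each of the 4 arrays. Points are arrays, horizontal lines are means of the 2 arrays of a genotype, and every panel spans 1 log2 unit around its own centre, so that distances but not heights compare between panels. Il3ra and Il4ra sit lower and Flt3 higher in Rbpj-deficient cells with no overlap, the means of Csf2rb and Csf1r differ by -0.013 and 0.044, and Kit is set apart on 1 Rbpj-deficient array.

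The receptor tyrosine kinases differed in brightness and in spread. Csf1r, the M-CSF receptor and a mark of monocytes and macrophages, was read by 3 probes. The brightest read 7.27 and 7.27 in control cells and 7.32 and 7.31 in Rbpj-deficient cells, which differed by 0.044 on the log2 scale with a 95% interval of -0.10 to 0.19 (limma SE 0.05, adjusted p = 0.644). The other 2 probes gave 0.069 and 0.11. All 3 thus lay slightly above 0, and the interval of the brightest reaches no further than 114.0% of the control signal. The 9 other monocyte and macrophage markers tested had a summed signal of 160.7 to 177.7 times the 75th percentile on the control arrays and 151.1 to 155.6 times on the Rbpj-deficient arrays, and Fcgr1, a high-affinity Fc receptor of these cells, fell by 0.61 on the log2 scale (limma adjusted p = 0.0424).

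Flt3, the receptor that marks dendritic cell progenitors and the dendritic cells that depend on Flt3 ligand, was dim in these cultures. Its 1 usable probe read -2.72 and -2.78 in control cells and -2.37 and -2.38 in Rbpj-deficient cells. In scanner units the signal was 208 and 207 against 279 and 279, well above background on every array. The arrays of each genotype nearly coincided and the genotypes did not overlap, with a log2 difference of 0.38 and a 95% interval of 0.23 to 0.54 (limma SE 0.06, adjusted p = 0.0640). The second Flt3 probe read 13.8, 11.6, 21.2 and 15.4 in scanner units on the same arrays, was not well above background on any of them and was not tested. With normexp, which adds an offset and shrinks the changes of dim probes, Flt3 stood at 0.27, and its adjusted p ran from 0.0504 to 0.336 over the 14 settings. The 4 other progenitor markers tested summed to 2.61 to 2.73 times the 75th percentile in control cells and 2.49 to 3.36 times in Rbpj-deficient cells, so that those ranges overlapped.

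Kit, the stem cell factor receptor of progenitors and mast cells, read -0.57 and -0.43 in control cells and -0.0038 and -0.49 in Rbpj-deficient cells. Rbpj-deficient replicate 1 stood above the other arrays, while replicate 2 lay between the control arrays. The log2 difference of 0.25 had a 95% interval of -0.26 to 0.77 (limma SE 0.19, adjusted p = 0.458) and was 0.01 without Rbpj-deficient replicate 1 and 0.50 without replicate 2. Among the 5 other mast cell and basophil markers tested only the histamine-forming enzyme Hdc passed. It rose by 0.48 (limma adjusted p = 0.0477), where 1.04% of all genes passed as higher. All 5 were dim, with control means of -4.47 to -1.77. Their summed signal was 0.964 and 0.995 times the 75th percentile on the control arrays against 1.45 and 1.46 times on the Rbpj-deficient arrays. Fcer1a, Ms4a2, Mcpt4 and Cma1, defining genes of mast cells and basophils, were not well above background on both arrays of either genotype. The part of such cells in the Kit and Il3ra values was not tested.

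Csf3r, the G-CSF receptor of neutrophils and their precursors, read 5.01 and 4.74 in control cells and 5.08 and 5.10 in Rbpj-deficient cells. The genotypes did not overlap, but the control arrays differed by more than the gap that separated control replicate 1 from the Rbpj-deficient arrays. The log2 difference was 0.22 with a 95% interval of -0.08 to 0.52 (limma SE 0.11, adjusted p = 0.306), and it was 0.08 without control replicate 2 and 0.35 without control replicate 1. Beside it, 12 other neutrophil markers were tested, of which Mpo (0.74, limma adjusted p = 0.0378) and Ngp (0.54, limma adjusted p = 0.0445) rose and none fell, where 1.04% of all genes tested rose. With Csf3r 11 of the 13 lay above 0 and the median was 0.57, while Elane stood at -0.14 with no overlap of the genotypes and Mmp8 at -0.14 with overlap. The summed signal of the 12 was 32.5 and 37.6 times the 75th percentile on the control arrays. On the Rbpj-deficient arrays it was 55.0 and 48.1 times. This rise came from S100a8 (0.83, limma adjusted p = 0.0712) and S100a9 (0.85, limma adjusted p = 0.0812), neither of which passed. Mpo and Ngp were dim, with control means of -3.93 and -1.65, and added little to the sum. The part of such cells in the Csf3r value was not tested. Ly6g was not covered by the array.

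**Figure D2:**
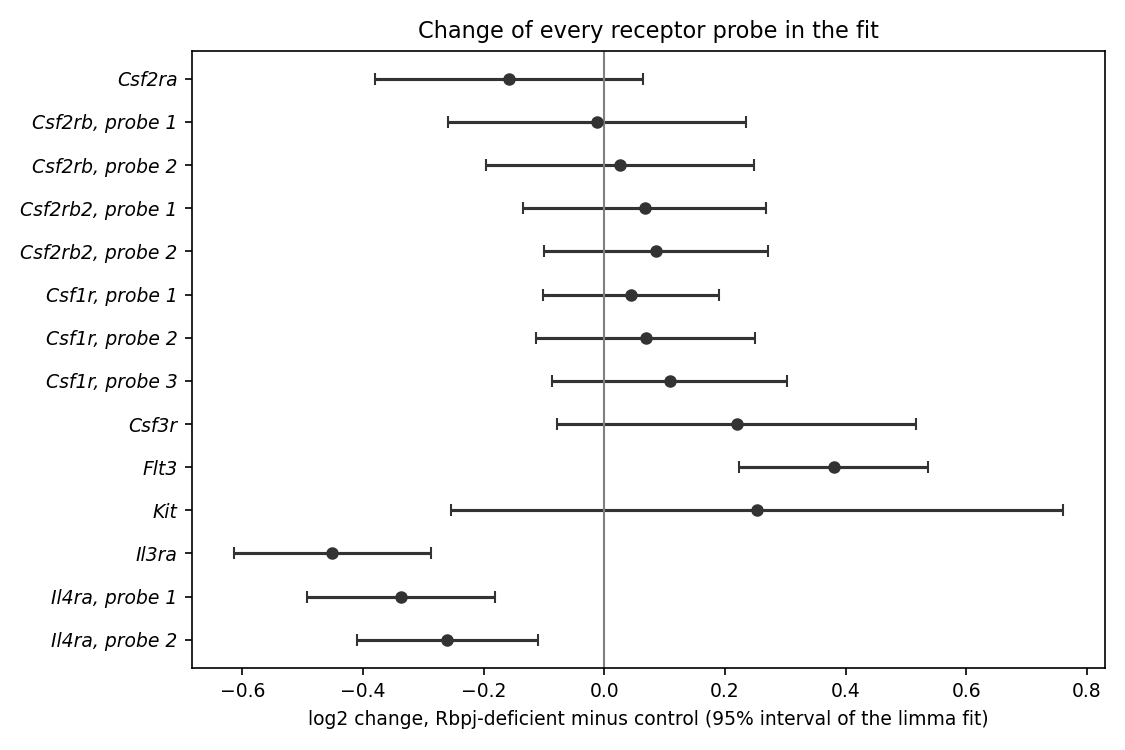
Log2 change, Rbpj-deficient minus control, of the 14 receptor probes in the fit. Points are estimates and bars are 95% intervals of the limma fit over all probes. The bars of Flt3, Il3ra and both Il4ra probes leave out 0 before any adjustment for the number of probes, and those of the 10 others include it.

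Seen together, the 9 genes had a median log2 change of 0.04 against -0.01 over all genes, with 5 above 0 and 4 below. Genotypes did not overlap for 6 of the 9, where 59.1% of all genes did not overlap. Of these 3 were higher, against 26.8% of all genes, and 3 were lower, against 32.3%. An unadjusted limma p under 0.05 was reached by 3 of the 9, Il3ra, Il4ra and Flt3, and by 24.1% of all genes. With 9 genes these shares were near those of all genes.

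The GM-CSF receptor chains were set against the other receptors within each array, by taking the log2 ratio of each member to Csf2rb. Such a ratio is free of any scaling between arrays, and its change shows unequal change of 2 genes without saying which one moved. From control to Rbpj-deficient cells the ratio of Il3ra to Csf2rb changed by -0.44, that of Il4ra by -0.32, that of Flt3 by 0.39 and that of Csf3r by 0.23. The arrays of the genotypes did not overlap for these 4 ratios or for that of Csf2rb2, which changed by 0.08, where 38.3% of the ratios of all genes to Csf2rb did not overlap. They overlapped for Csf2ra (-0.15), Kit (0.27) and Csf1r (0.06). An exact two-sided permutation test of 2 arrays against 2 cannot give a p below 0.333 and so says nothing here. In a limma fit of the ratios of all 17966 other genes to Csf2rb, chosen after the data were seen, none of the 8 passed the threshold and 5.92% of all ratios did. At an unadjusted p under 0.05 it gave 2 of the 8, against 12.8% of all ratios. The change for Il3ra had a 95% interval of -0.82 to -0.05 (adjusted p = 0.254 over all genes in limma), that for Flt3 an interval of 0.0062 to 0.78 (limma adjusted p = 0.372) and that for Il4ra an interval of -0.71 to 0.06 (limma adjusted p = 0.590). The same Csf2rb values enter every ratio and limma gave each of the 8 an SE of 0.197, so the errors are not independent between genes and these intervals and p-values are approximate. Whether the GM-CSF receptor and the other receptors differed in response was not settled by these 4 arrays.

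**Figure D3:**
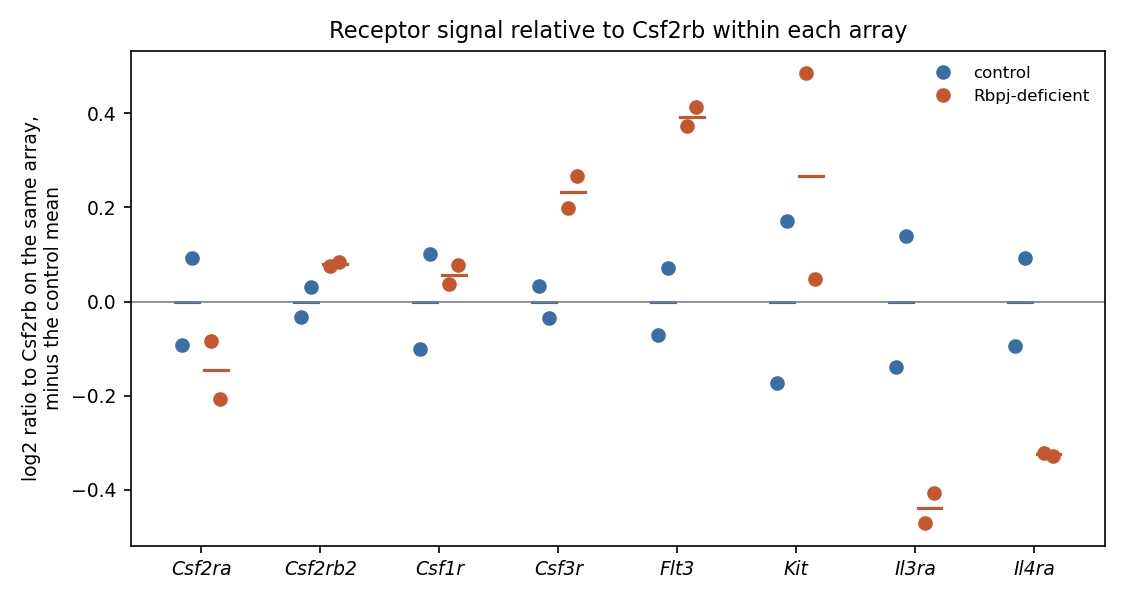
Log2 ratio of the other 8 receptor genes to Csf2rb on the same array, less the mean of the 2 control arrays. Points are arrays and short lines are means of a genotype. The means of Il3ra and Il4ra lie below and that of Flt3 above their control means by 0.32 to 0.44, with no overlap of the points. Those of Csf3r and Csf2rb2 lie above by 0.23 and 0.08, also with no overlap, whereas the points of Csf2ra, Csf1r and Kit overlap.

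The rest of the pathway was described from lists of ligands, related receptors, signalling proteins, STAT5 targets and regulators of receptor genes. Of 10 ligand genes 3 were tested and none passed. Il4 stood at -0.34 and Csf1, which encodes M-CSF, at -0.28, each with no overlap of the genotypes, and Flt3l, the ligand of Flt3, at -0.02. Csf2, which encodes GM-CSF itself, and Csf3, Kitl, Il3, Il5, Il13 and Il34 were on the array but not well above background on both arrays of either genotype. Il4 was dim, at a level of -4.62 ± 0.03 in control cells against -4.96 ± 0.16 (SD, n = 2).

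None of 9 related receptors passed. The lowest were the IL-7 receptor chain Il7r (-0.30) and its partner in the TSLP receptor, Crlf2 (-0.24), and the highest were Il13ra1, which joins Il4ra to bind IL-13 (0.30), and the IL-6 receptor Il6ra (0.22). Il5ra, the IL-5 partner of Csf2rb, is given outside the rule for naming genes. It read -5.96 and -5.30 in control cells and -5.25 and -2.94 in Rbpj-deficient cells, so that its difference of 1.54 came from 1 array. Il5ra is known from eosinophils, and the 3 eosinophil markers tested, Il5ra among them, summed to 3.68 to 3.84 times the 75th percentile in control cells and 2.58 to 2.65 times in Rbpj-deficient cells. Siglecf, a sialic acid receptor, made up most of that sum and fell by 0.63 on the log2 scale (limma adjusted p = 0.0379). The fall of the sum and that of Siglecf are thus the same observation. Prg2 stood at -0.10 with overlap of the genotypes. Of 6 markers of T, B and natural killer cells tested, 3 lay above 0 and 3 below. The natural killer receptor Klrb1c rose by 1.14 (limma adjusted p = 0.0379) from a dim control mean of -4.62. The summed signal of the 6 was 7.53 to 7.65 times the 75th percentile in control cells and 6.53 to 6.93 times in Rbpj-deficient cells. Most of this sum came from Cd4 (-0.25) and Nkg7 (-0.21).

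Of 21 signalling genes tested none passed, 14 lay below 0 and 7 above, and the median was -0.07. Stat5a, a transcription factor that GM-CSF activates, stood at -0.28 (limma adjusted p = 0.108), and the ubiquitin ligase Cblb at -0.20. The ubiquitin ligase Cbl, which targets activated receptors for removal, stood at 0.39. Jak2, the kinase bound to the beta chain, differed by -0.04 with a 95% interval of -0.30 to 0.21; it was named after its value was seen, as was Cish.

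Genes that STAT5 switches on, or that keep such cells alive, were taken as a list downstream of the receptor. Signalling itself was not measured. None of the 10 passed, where 1.88% of all genes did, and their median was -0.03. An unadjusted limma p under 0.05 was reached by 5 of the 10, in both directions, and by 24.1% of all genes. Cish, a classical STAT5 target, read 5.17 and 5.12 in control cells and 5.13 and 5.05 in Rbpj-deficient cells, which differed by -0.05 on the log2 scale with a 95% interval of -0.23 to 0.12 (limma adjusted p = 0.650). Socs2, another inhibitor of cytokine signalling, stood at -0.45 (limma adjusted p = 0.0938) and the cytokine Osm at -0.31. Pim2 and the cyclin Ccnd2 each stood at 0.30. Of the 10, 4 lay above 0 and 6 below.

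Among 11 regulators of receptor genes, 1 passed, where 1.88% of all genes did. It was Gfi1, which was dim, with a control mean of -4.30. Gfi1, a zinc finger repressor of the granulocyte lineage, rose from -4.27 and -4.33 in control cells to -2.81 and -3.06 in Rbpj-deficient cells, by 1.36 on the log2 scale (limma SE 0.10, adjusted p = 0.0353). Klf4, a factor of monocytes, stood at -0.53 (limma adjusted p = 0.0810), Cebpe, a factor of granule formation, at -0.37, and Myb, of progenitors, at 0.24. The medians of these lists ran from -0.28 for the 3 ligands to -0.03 for the STAT5 targets.

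**Figure D4:**
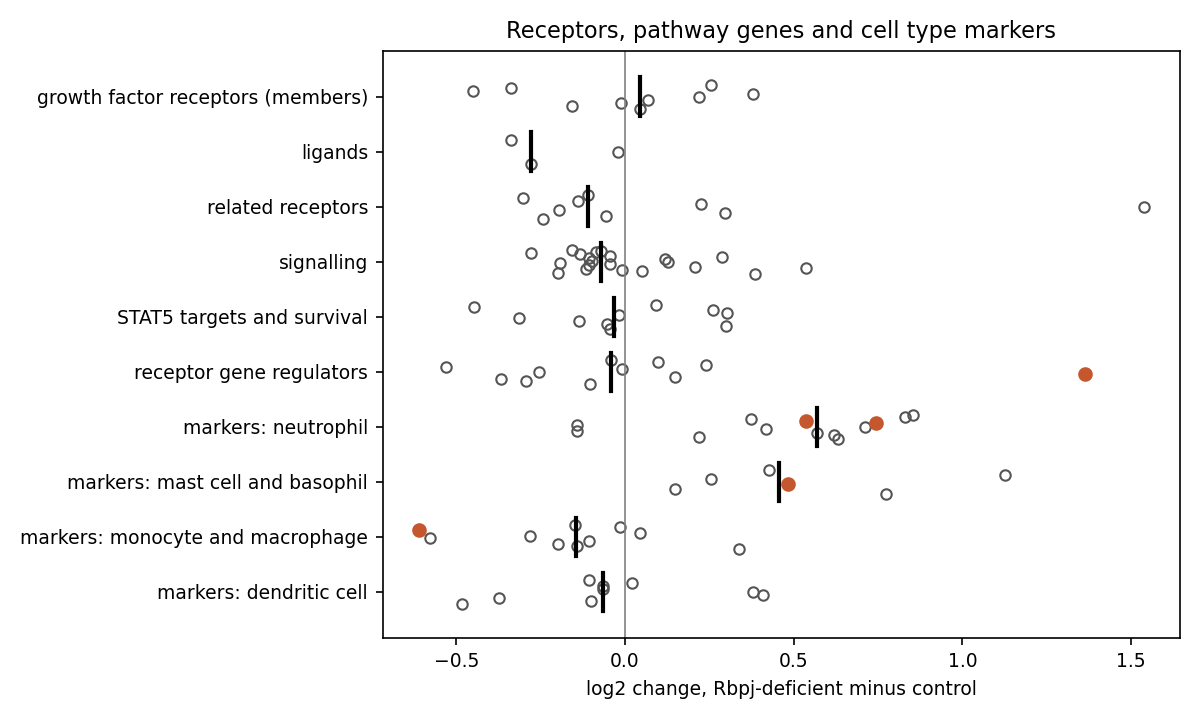
Log2 change, Rbpj-deficient minus control, of every tested gene in the receptor list, the pathway lists and the marker lists of 4 cell types. Filled points passed an adjusted p of 0.05 over all genes, open points did not, and black bars are medians. The 9 receptors lie between -0.45 and 0.38 around a median of 0.04, and the neutrophil list, which holds Csf3r, has a median of 0.57.

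The 3 members farthest from 0 were also compared with all other named genes well above background on every array, 12286 in number, by the Euclidean distance between levels centred on the mean of the 4 arrays. The nearest to Il3ra were Phka2, Hhat and Naxe, at distances of 0.01 to 0.03 log2 units. The nearest to Flt3 were Usp2, Wnk1 and Hrh1, at 0.02 to 0.04, and the nearest to Il4ra were Efna2, Pgap2 and Mpi, at 0.01 to 0.02. With 4 arrays such a likeness describes the values only.

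**Figure D5:**
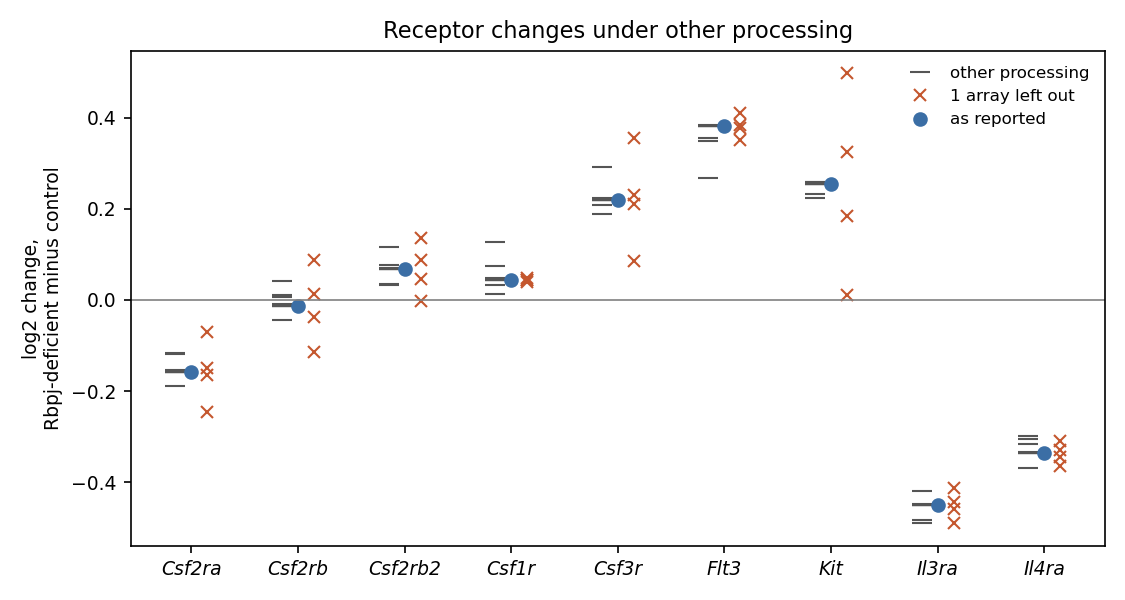
Log2 change of each receptor gene as reported and under 14 other settings. Circles are the values as reported, dashes the 10 settings with other processing and crosses the 4 with 1 array left out. Il3ra and Il4ra stay below 0 and Flt3 above 0 in all of them, Csf2rb changes sign, and Kit runs from 0.01 to 0.50 with the array left out. The genotypes do not overlap for Il3ra, Il4ra and Flt3, so leaving out 1 array could not turn their sign. Settings that changed only the filter, outlier rule, prior or block gave the values as reported.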

How the data were processed

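RNA was measured on 4 one-colour Agilent arrays, all on 1 slide, so that place on the slide and genotype cannot be told apart. The intensity of each spot was read by the authors with Agilent Feature Extraction 10.7.1.1, per the file headers and the submitters' processing notes, which corrected background and trends within an array and did not scale between arrays. A second deposited table holds log2 values by the authors, and how it was made is not given in the sources used here. Compared with the scanner values it proved to be scaled per array, centred on each probe's median and of the same direction. Its columns had medians of 0.05, -0.03, -0.03 and 0.02, and it was used as an alternative only.

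Spots flagged as outliers (127 to 176 an array) were left out, signal was taken to log2 and reduced by the 75th percentile of the array, and repeated spots were averaged per probe. A probe was kept where both arrays of 1 genotype or more had it well above background (22035 probes), which kept all 9 members. Of 39429 probes 26055 were named through RefSeq accessions of GRCm38.p6. The array annotation is of mm9, so no gene coordinates are given apart from those of promoter windows. All 17967 genes were fitted in R 4.3.3 with the lmFit and eBayes functions of limma 3.58.1, and p-values were adjusted by Benjamini-Hochberg. Precision is limited by how few arrays there are. The fit was tested on simulated arrays that were independent and whose variances followed the prior of this same fit. That test does not cover arrays that share a pool. Figures and sequence searches used Python 3.11.15.

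Normexp used the median spot signal. The 14 alternatives were other background correction, scaling, filters, probe rule, outlier handling, variance prior, a block by replicate number, the deposited table and each array left out. Genes were named by a rule: the members, Rbpj and Itgax, all tested ligands, and in each pathway list those past the threshold and the 2 highest and 2 lowest well above background on all arrays. Marker genes that passed, other markers named beside them, Il5ra, Jak2 and Cish were added once their values were known. One gene that the rule would name is not reported here. The members and lists were chosen with earlier results of these data known.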

Additional observations from a re-analysis of the deposited data

How the results depend on the processing

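Under 14 alternatives the 9 receptors had 126 values, of which 116 kept their direction and their side of the threshold. Of the others 4 passed it and 6 turned sign, and the cause was not tested. Much of this was fixed in advance. Changing only the probe filter, the treatment of outlying spots, the variance prior or the block could not turn a sign. Nor could leaving out 1 array for the 6 receptors whose genotypes did not overlap. With no filter on dim probes and with the block 0 of all genes passed. An unchanged side of the threshold thus says little there. Il3ra passed at -0.49 with normexp, at -0.45 where only probes well above background on all 4 arrays were tested and at -0.45 with a variance prior that followed the signal and was robust, and Il4ra at -0.34 with that prior. The members that passed thus numbered 1, 1 and 2 under these settings, all lower, where 4.99%, 2.76% and 8.62% of all genes passed. As reported 0 passed in limma, against 1.88% of all genes, and 3 had an unadjusted p under 0.05, against 24.1%. Csf2rb turned to 0.0115 with normexp, 0.0414 under quantile normalisation and 0.00672 as the mean of its probes, and ranged from -0.113 to 0.0884 with 1 array left out. Csf2rb2 ranged from -0.00226 to 0.136 with 1 array left out.

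Over all genes limma called 187 higher and 151 lower, against 426 and 470 with normexp and 694 and 854 with the other prior. It called 0 with no filter on dim probes and 0 with the replicate number as a block, although 3654 and 3677 genes had an unadjusted p below 0.05 there. With 1 array left out it called 0 to 1 higher and 0 lower, while 2977 to 3505 genes had an unadjusted p below 0.05. Such fits rest on fewer degrees of freedom, a lone array being assumed to vary like the other genotype, and say little about stability. The labels do not say that a replicate number marks a shared source. The deviations of same-numbered arrays correlated at -0.05 over 17967 genes. No receptor was called as reported and 0 genes were called with the block, so the calls of receptors say nothing about pairing. The limma adjusted p of Il3ra went from 0.0573 to 0.125 with the block. The Flt3 value rests on 1 probe, as its second was not above background on any array.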
